A study of Gallus gallus with 12 samples.

Results

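Ion channel genes were compared between normal and diseased chicken breast muscle. A gene was included when a row of the array table carried a single platform gene symbol beginning with KCN, CACN, CLCN, CNGA, CNGB, TRPC, TRPM or TRPV, or with SCN or HCN followed by a digit. The rule took 119 genes, measured by 126 of the 20804 rows (transcript clusters, groups of probes for 1 transcript unit). No HCN gene was among them. The 7 genes with a second row were represented by the brighter row, and the second row is given beside it. TRPC4AP, a protein that binds a TRPC channel, and KCNRG, a regulator of potassium channels, are no channels themselves but meet the rule. Another 3 rows shared by SCN3A and SCN2A were left out.

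The tissue was the Pectoralis major, the large white muscle of the breast, of 12 Ross 708 broilers labelled male, all of a single flock with a mean live weight of 3.7 kg. At slaughter 6 fillets were classed as normal, and 6 showed white striping and wooden breast, seen as pale lines along the fibres and a hard fillet; these are called affected here. The age of the birds is not given in the sources used here. Each bird gave 1 array, so n = 6 per group, and affected and normal fillets come from different birds. Of 9 listed markers of fast fibres 5 were measured, and ACTA1, TNNT3, TNNI2 and TNNC2 had mean log2 levels between 11.2 and 12.6 in both groups. The fifth, the calcium-binding protein PVALB, had means of 4.36 and 5.19 and ranged from 3.41 to 7.09 in affected birds.

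Ion channels are membrane proteins that let selected ions pass. In skeletal muscle, sodium channels carry the action potential along the fibre and into the T-tubules, the infoldings of its membrane. There the voltage sensor CACNA1S triggers calcium release from the sarcoplasmic reticulum, while chloride and inward rectifier potassium channels hold or restore the resting potential. Fibroblasts, vessels, nerves and immune cells in the muscle carry other channels, among them TRP channels and 2-pore potassium channels that respond to stretch, lipids or chemical signals. In bulk tissue, fewer cells of a type and less RNA per cell cannot be told apart.

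Values are log2 levels as deposited, and a difference is affected minus normal on that scale, with its standard error. Each difference was tested with limma across all rows, and a gene is said to rise or fall only at an adjusted p under 0.05. Array medians lay between 4.05 and 4.16. Rows differ in probe affinity, so levels are not compared between genes. Although all birds are labelled male, normal birds 1, 4 and 5 had transcripts of HINTW, a gene of the female-specific W chromosome, at 8.51 to 9.41, against 2.46 to 2.99 on the other 9 arrays. The main counts and many of the named genes are therefore also given without these 3 arrays, which leaves 3 normal and 6 affected birds. Over all rows of the array, 238 passed, and this count ran from 1 without affected bird 6 to 588 without affected bird 1. Without the 3 arrays 3 rows passed (0.0144% of all rows), and no channel gene was among them.

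As a group, the channel genes differed little between normal and affected muscle. By the brighter rows a single gene of 119 passed the test, CNGB1, which fell. That is 0.840% of the genes, beside 1.14% of all rows in either direction and 0.514% in the lower direction. The second row of CACNA2D2 also passed (adjusted p = 0.0217). Second rows are left out of the counts of channel genes here, while the shares of all rows include them. At an unadjusted p under 0.05 stood 18 genes, 5 higher and 13 lower in affected muscle, or 15.1%, beside 22.1% of all rows. The groups did not overlap for 2 genes, CNGB1 (lower, as in 1.11% of all rows) and KCNK2 (higher, as in 1.06%), beside 2.17% of all rows in either direction. The second rows of CNGB1 and CACNA2D2, not counted here, did not overlap between groups either. Of the 119 genes 102 lay within 0.25 of no difference, which is 85.7%, beside 74.9% of all rows. By their brighter rows only CNGB1, KCNK2, TRPV2, TRPC6 and KCNH7 differed by 0.5 or more, and no gene reached 2-fold. The median difference was -0.06, against -0.03 for all rows, with 78 genes lower (65.5%, beside 56.1% of all rows) and 41 higher. Per bird, the median deviation of the 119 genes from their means lay between -0.04 and 0.05 in normal and between -0.08 and 0.0058 in affected birds, so the groups overlapped.

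Many of these rows were dim. In 48 of the 119 genes both group means lay under 2.99, the highest HINTW level on the other 9 arrays, and no expression is claimed for them. Probe affinities differ, so this is a rough mark and not a detection limit of each row. By mean level, 65 genes lay in the lowest tercile of all rows, 37 in the middle tercile and 17 in the highest. At an unadjusted p under 0.05 stood 7, 7 and 4 of them, in that order. Of all rows in these terciles 12.6%, 24.6% and 29.1% did. The part of dim rows in the lower share of the channel genes was not tested. In the lowest tercile 73.8% of the channel genes and 68.1% of all rows were lower in affected muscle, with median differences of -0.08 and -0.06. In the highest tercile the medians were 0.06 for the channel genes and 0.05 for all rows. Without the 3 W-transcript arrays the medians of this tercile were -0.21 and 0.0027, so the channel genes there changed sign. The typical spread between birds of a group (median SD) was 0.18 for channel genes and 0.20 for all rows.

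**Figure D1:**
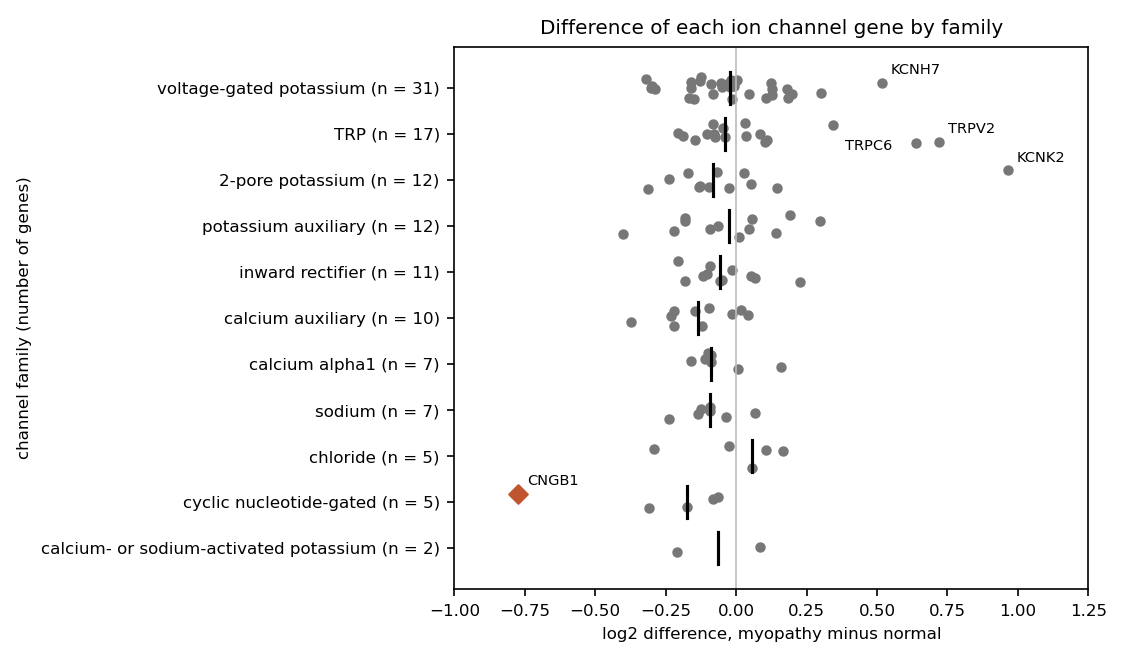
Each point is 1 of 119 ion channel genes, placed by its log2 difference (affected, labelled myopathy, minus normal; n = 6 birds per group) within its channel family. Genes are shown by their brighter rows. Black bars are family medians, and the orange diamond marks the gene with an adjusted p under 0.05. Genes at least 0.5 from no difference are named, and most points lie within 0.25 of 0.

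Cyclic nucleotide-gated channels open on binding cAMP or cGMP and are best known from photoreceptors and olfactory neurons. All 5 measured genes were lower in affected muscle, with a family median of -0.17, and 1 of them passed. In 3 of the 5, CNGA1, CNGA3 and CNGB3, both group means lay under 2.99, and the median is the value of CNGA3. With single birds left out the family median ran from -0.21 to -0.08, the latter without normal bird 1. CNGB1, a beta subunit that in mammals modulates the rod and olfactory channels, ranged from 5.87 to 6.66 in normal birds (median 6.22) and from 5.23 to 5.85 in affected birds (median 5.46). All 6 affected birds lay below the lowest normal bird. CNGB1 fell by 0.77 ± 0.13 (adjusted p = 0.0240), to 58.5% of its normal level. The second CNGB1 row, with levels of 2.91 ± 0.15 (SD) in normal and 2.62 ± 0.10 in affected muscle, did not overlap between groups either. Its difference of -0.28 ± 0.08 did not pass (adjusted p = 0.0847), and both group means lay under the 2.99 of HINTW.

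The size of the CNGB1 difference changed little with single birds left out, from -0.85 to -0.69, but the call was lost in 5 cases. Without normal bird 4 the adjusted p was 0.0697, and without affected birds 2, 3, 4 and 6 it was 0.0629, 0.0614, 0.0537 and 0.0659. When the 3 arrays with W transcripts were left out the difference was -0.62 (adjusted p = 0.110), and the 3 remaining normal birds lay between 5.87 and 6.23. The difference was -0.53 when both rows were averaged (adjusted p = 0.0248). CNGA2, the pore-forming subunit of the olfactory channel, lay between 3.92 and 4.08 in normal birds and between 3.22 and 4.24 in affected birds. There 5 affected birds were below the normal range and 1 was above it, and the difference of -0.31 ± 0.14 did not pass (adjusted p = 0.217). CNGA1, CNGA3 and CNGB3 had normal means of 2.05 to 2.36 and differences of -0.06, -0.17 and -0.08.

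Calcium channel genes encode the pore-forming alpha1 subunits and the auxiliary alpha2delta, beta and gamma subunits. None of the 7 alpha1 genes and none of the 10 auxiliary genes passed by its brighter row. CACNA1S, the alpha1 subunit that senses the T-tubule voltage, had a normal range of 7.35 to 8.45 (median 7.91) and an affected range of 7.66 to 8.11 (median 8.04). The affected birds all lay inside the normal range. The means were 7.95 ± 0.40 (SD) and 7.95 ± 0.18, and the 95% interval of the difference ran from -0.35 to 0.36. With the 3 W-transcript arrays left out the difference was -0.24 (adjusted p = 0.432). CACNA2D1, the alpha2delta subunit of the skeletal muscle channel, had means of 8.65 ± 0.18 (SD) and 8.51 ± 0.13, a difference of -0.15 ± 0.09 (adjusted p = 0.377).

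CACNA2D2, another alpha2delta subunit, gave unequal results in its 2 rows. The brighter row ranged from 4.56 to 5.10 in normal and from 4.14 to 5.06 in affected birds, with a difference of -0.12 ± 0.14 (adjusted p = 0.637). The second row ranged from 4.23 to 4.65 in normal birds (median 4.45) and from 3.81 to 4.07 in affected birds (median 3.92), with no overlap. By this row CACNA2D2 fell by 0.52 ± 0.08 (adjusted p = 0.0217), to 69.8% of its normal level. Without affected birds 2, 3 and 6 the second row's difference was -0.52, -0.49 and -0.51, with an adjusted p of 0.0526, 0.0614 and 0.0583. With the 3 W-transcript arrays left out it was 0.0713, at a difference of -0.58. When both rows were averaged the CACNA2D2 difference was -0.32 and did not pass. Over 24 refits of the brighter row or of this average, the lowest adjusted p was 0.101.

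**Figure D2:**
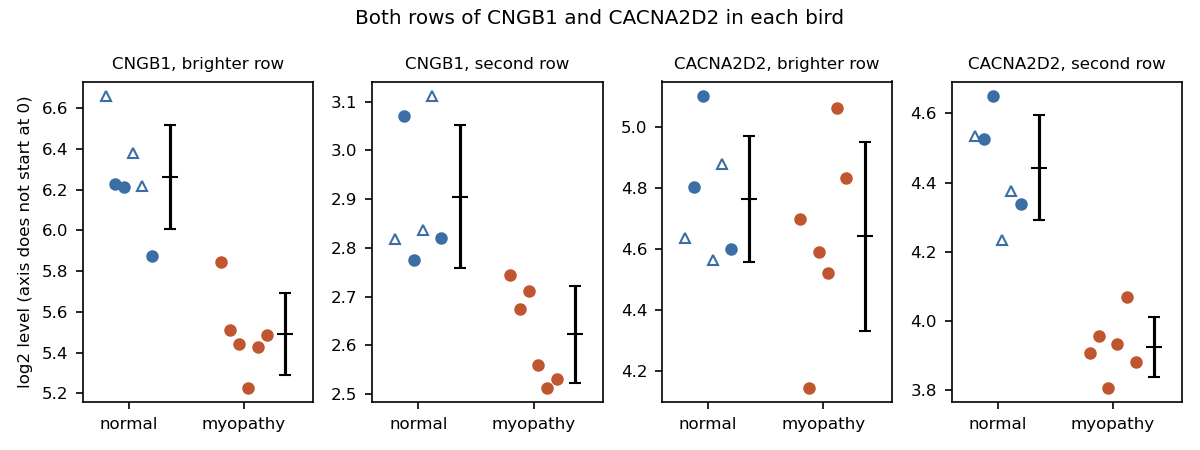
Log2 levels of both rows of CNGB1 and CACNA2D2 in each of 6 normal (blue) and 6 affected (orange, labelled myopathy) birds; open triangles are the 3 normal arrays with W transcripts, and the black bar is the mean ± SD. The groups separate in both CNGB1 rows and in the second CACNA2D2 row, while the brighter CACNA2D2 row overlaps.

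Of the 10 auxiliary calcium channel genes, CACNA2D1 and CACNA2D2 included, 8 were lower, with a family median of -0.13. CACNG3, a gamma subunit that in mammals is known as a partner of glutamate receptors, ranged from 5.82 to 6.10 in normal and from 5.19 to 5.88 in affected birds. In 4 affected birds it lay below every normal bird, and the difference was -0.37 ± 0.12 (adjusted p = 0.103). CACNA2D4, an alpha2delta subunit of the retina, had a difference of -0.22 ± 0.08 (adjusted p = 0.146), at levels of 3.06 ± 0.17 and 2.84 ± 0.06. The 2 beta subunits measured, CACNB2 and CACNB4, differed by 0.02 and 0.04. Among the other alpha1 genes the differences ran from -0.16 for CACNA1I to 0.16 for CACNA1H, both pores of low-voltage-activated channels.

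Sodium channel genes did not pass in any of 7 cases, and 6 were lower with a median of -0.09. In 3 of the 7 both group means lay under the 2.99 of HINTW. SCN4A, the pore of the skeletal muscle sodium channel, ranged from 6.57 to 7.58 in normal birds (median 7.07) and from 6.85 to 7.82 in affected birds (median 7.02). In 5 of 6 affected birds it lay inside the normal range, and the difference of 0.07 ± 0.19 had a 95% interval from -0.34 to 0.48. SCN4A differed by -0.11 without the 3 W-transcript arrays. Its beta subunits SCN4B and SCN2B differed by -0.04 ± 0.12 and -0.12, and both lie side by side on the reference assembly. SCN3B, a further beta subunit, had a difference of -0.24 ± 0.12 (adjusted p = 0.245). SCN1A, a neuronal pore subunit, had means of 2.12 and 1.99, under the level of 2.99 named above.

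Of the chloride channel genes 3 were higher and 2 lower, with none past the test. CLCN1, the channel that carries most of the resting conductance of muscle fibres, ranged from 5.46 to 6.19 in normal birds (median 5.83) and from 5.04 to 6.23 in affected birds (median 5.52). In 3 affected birds CLCN1 lay below all normal birds and in 1, affected bird 5, above them. The difference was -0.29 ± 0.18 (adjusted p = 0.363), and -0.46 with the 3 W-transcript arrays left out (adjusted p = 0.327). CLCN3, CLCN5, CLCN6 and CLCN7, which act in endosomes and lysosomes, differed by 0.06, 0.11, 0.17 and -0.02. For CLCN6 the difference without the 3 arrays was -0.04.

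Inward rectifier potassium channels pass current more easily into the cell and set the resting potential. None of 11 genes passed, and the median was -0.06. KCNJ2, the main such channel of many excitable cells, ranged from 5.67 to 7.15 in normal and from 6.02 to 7.04 in affected birds, and the affected birds lay inside the normal range. Its difference was 0.23 ± 0.24 (adjusted p = 0.600), and -0.02 without the 3 arrays. KCNJ12, a close relative, had means of 5.22 ± 0.50 and 5.21 ± 0.58, and its difference had a 95% interval from -0.61 to 0.58. KCNJ8, a pore of ATP-sensitive channels found in vessel walls, differed by 0.07. KCNJ15 and KCNJ1 differed by -0.20 ± 0.10 and -0.18 ± 0.12 (adjusted p = 0.266 and 0.377).

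Every gene has a lowest and a highest bird in each group, and for the fibre channels these birds were counted. No such count over all rows is given here. Normal bird 1 was the lowest of the 6 normal birds for 6 of the 13 measured channels on the list of fibre channels, namely SCN4A, CACNA1S, CACNA2D1, CLCN1, KCNJ2 and KCNJ12, and normal bird 6 was the highest for 5. In the fit with array weights the array of normal bird 1 had the lowest weight, 0.57. Among the affected birds, bird 1 was the lowest for 5 and birds 4 and 5 were the highest for 4 each. Of these 13 channels 7 were higher and 6 lower in affected muscle, with a median of 0.0051 and 0 past the test by limma, while 3 were at an unadjusted p under 0.05 (KCNE3, TRPC1 and TRPV2), which is 23.1%, beside 22.1% of all rows. Without the 3 arrays 10 of the 13 were lower, with a median of -0.14.

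**Figure D3:**
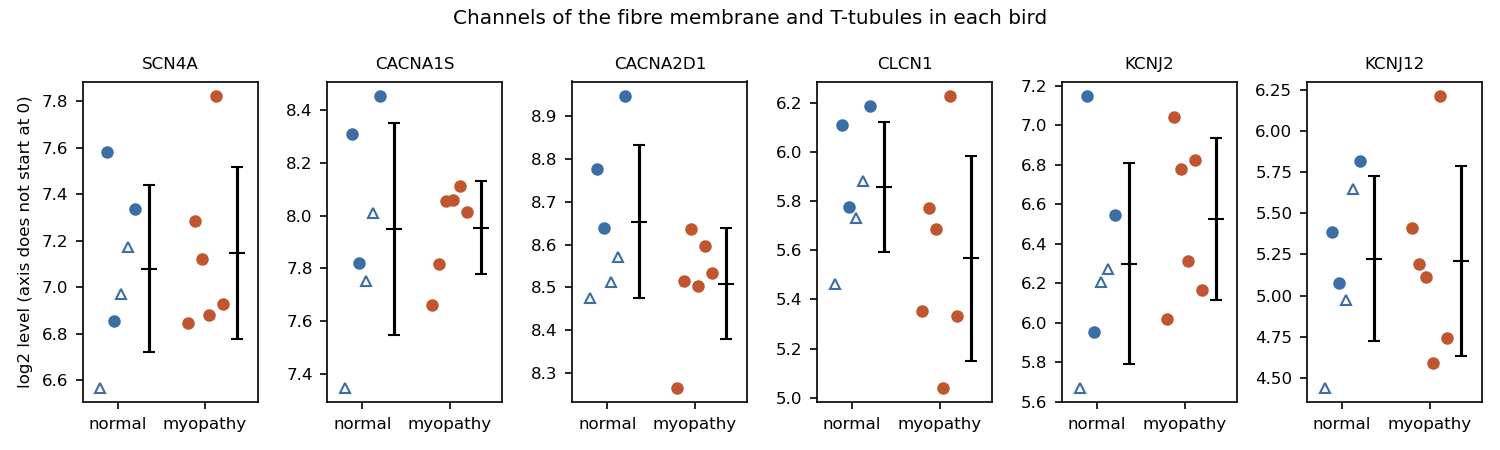
Log2 levels of 6 channel genes of the muscle fibre in each normal (blue) and affected (orange, labelled myopathy) bird; open triangles are the 3 normal arrays with W transcripts and black bars are the mean ± SD. The groups overlap in every panel. The genes drawn are the measured fibre channels in which normal bird 1, the lowest triangle, was the lowest normal bird.

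The largest positive differences belonged to KCNK2, TRPV2 and TRPC6, and none of them passed the test. KCNK2, a 2-pore potassium channel that in mammals opens with membrane stretch and polyunsaturated lipids, ranged from 3.12 to 4.25 in normal birds (median 3.79) and from 4.34 to 5.77 in affected birds (median 4.50). All 6 affected birds lay above all normal birds. The difference was 0.97 ± 0.25, a 1.95-fold ratio (adjusted p = 0.0652). An exact permutation gave an unadjusted p of 0.00216, the smallest that 924 arrangements can give. Any row whose groups do not overlap has this value, CNGB1 included, so it adds nothing to the separation. Within the normal group the 3 birds with W transcripts lay between 3.89 and 4.25 and the other 3 between 3.12 and 3.68. Without the former the difference was 1.28 (adjusted p = 0.114). The remaining 2-pore genes ranged from -0.31 to 0.15 in their differences. KCNK7, which in mammals gives no measurable current by itself, was at the lower end, with 4 affected birds below all normal birds and a difference of -0.31 ± 0.09 (adjusted p = 0.0824). KCNK15 differed by -0.13 ± 0.10.

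TRPV2, a calcium-permeable channel found in muscle and in macrophages of mammals, ranged from 4.79 to 5.43 in normal birds (median 5.22) and from 5.26 to 6.69 in affected birds (median 5.91). In 5 affected birds it stood above all normal birds, and affected bird 5 was inside the normal range. The difference was 0.72 ± 0.20, a 1.65-fold ratio (adjusted p = 0.0794). TRPV2 passed in 1 of 24 refits, when affected bird 5 was left out (0.85, adjusted p = 0.0489). Without the 3 W-transcript arrays its difference was 0.80 (adjusted p = 0.184). TRPC1, a subunit of store-operated and stretch-related channels, ranged from 5.13 to 5.85 and from 5.71 to 6.05, with a difference of 0.34 ± 0.12 (adjusted p = 0.131). Normal birds 1, 4 and 5 held the 3 highest normal values, 5.66 to 5.85, and without them the difference was 0.56 (adjusted p = 0.105).

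TRPC6, a channel opened by diacylglycerol and known from smooth muscle and fibroblasts, is named after its values were seen. It ranged from 2.61 to 3.34 in normal and from 2.96 to 4.46 in affected birds, with 4 affected birds above all normal ones. Its difference of 0.64 ± 0.24 did not pass (adjusted p = 0.148), and was 0.82 without the 3 W-transcript arrays (adjusted p = 0.217). Of the 17 genes of the TRP families 8 were higher and 9 lower, and none passed. TRPM7, a channel joined to a kinase and present in most cells, differed by 0.10 ± 0.10, with affected bird 4 alone at 5.23. TRPC4AP differed by 0.11 ± 0.19, and by -0.21 without the 3 W-transcript arrays. TRPM2 and TRPC5 differed by -0.21 and -0.19.

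Markers of connective tissue cells were also higher in affected birds. Of 7 listed fibroblast markers 5 were measured (COL1A1, COL1A2, LUM, PDGFRA and POSTN), and all 5 had higher means in affected muscle, by a median of 1.19. None of them passed over all rows, and each had an unadjusted p under 0.05. Their mean log2 level ran from 6.23 to 8.81 in normal and from 8.50 to 10.02 in affected birds, and their summed level on the log2 scale from 9.79 to 11.9 and from 11.6 to 13.1. Normal bird 2 was the lowest normal bird for this list and for KCNK2, TRPV2, TRPC1 and TRPC6, and affected bird 4 was the highest affected bird for all 5. Leukocyte markers, 7 of 8 measured, had mean levels of 4.44 to 5.57 and 5.15 to 6.12, with normal bird 2 lowest, affected bird 5 the lowest affected bird and affected bird 4 highest. Their summed level ran from 8.27 to 9.85 and from 9.39 to 10.3. Of the 7 leukocyte markers 5 had higher means in affected muscle, while CD4 and CD8A differed by -0.06 and -0.09. None of them passed, and 2, CD74 and LAPTM5, had an unadjusted p under 0.05. Normal bird 2 was also the lowest normal bird, and affected bird 4 the highest of all birds, for the mean levels of slow or cardiac fibre, smooth muscle, adipocyte and erythrocyte markers. The endothelium, satellite cell, fast fibre, and Schwann cell and axon lists did not have this order. Only 4 of 7 smooth muscle, 3 of 5 adipocyte and 2 of 7 erythrocyte markers were measured, and their genes did not all have it. Affected bird 4 was the lowest of all birds for the smooth muscle marker RGS5 (5.52). Normal bird 2 was not the lowest normal bird for the adipocyte marker PLIN1 (6.26) or the erythrocyte marker SLC4A1 (3.91). Affected bird 4 was the lowest of all birds for the mean of the fast fibre markers (10.04) and of the Schwann cell and axon markers (3.71). The mean level of the slow or cardiac fibre markers, 7 of 8 measured, ran from 5.11 to 6.17 and from 5.93 to 7.34. These markers did not move together, with 4 higher in affected muscle and a median difference of 0.22. MYH7, TNNC1 and MYL2 were lower, by -0.10, -0.33 and -0.18. The summed level of this list in affected birds, 10.64 to 12.44, reached both below and above the normal range. Of this list 1 gene passed, the muscle stress protein CSRP3, which rose by 3.30 ± 0.50 (adjusted p = 0.0175). Without the 3 W-transcript arrays the CSRP3 difference was 3.79 (adjusted p = 0.0749). The part of these cells or fibres in the channel results was not tested. With normal bird 2 and affected bird 4 left out, the differences were 0.63 for KCNK2, 0.48 for TRPV2, 0.23 for TRPC1 and 0.40 for TRPC6. The birds left out held the lowest normal and the highest affected value of each of these genes. The differences therefore had to become smaller, whatever the cause.

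**Figure D4:**
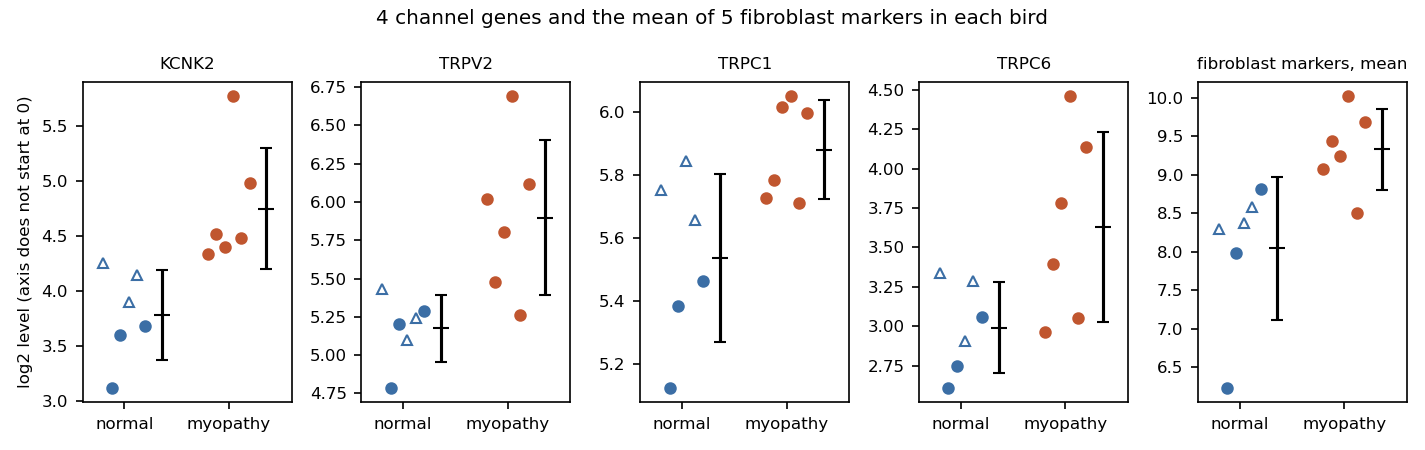
Log2 levels of KCNK2, TRPV2, TRPC1 and TRPC6, and the mean log2 level of 5 fibroblast markers, in each normal (blue) and affected (orange, labelled myopathy) bird; open triangles are the 3 normal arrays with W transcripts and black bars are the mean ± SD. KCNK2 separates the groups, and affected bird 4 is the highest point in each panel.

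Voltage-gated potassium channels, which repolarise the membrane after an action potential, were the largest family with 31 genes. Of these 11 were higher and 20 lower, the median was -0.02, and none passed. KCNG4, a silent subunit that modifies other channels, ranged from 3.59 to 4.03 in normal and from 3.21 to 3.64 in affected birds, with 5 affected birds below all normal birds. Its difference was -0.32 ± 0.10 (adjusted p = 0.0895), and -0.10 ± 0.10 in its second row. KCNC1, a fast-repolarising channel, differed by -0.30 ± 0.10 (adjusted p = 0.106), and its relative KCNC4 by -0.13 ± 0.12. The KCNC1 means were 3.21 in normal and 2.91 in affected birds, the latter under the 2.99 of HINTW. KCNQ5, which carries a slow current that steadies the resting potential, ranged from 4.23 to 5.42 and from 4.60 to 5.97, with a difference of 0.30 ± 0.25 (adjusted p = 0.494). That difference was 0.08 without the 3 W-transcript arrays (adjusted p = 0.910).

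KCNH7, named after its values were seen, was spread widely in both groups, from 3.002 to 5.13 in normal and from 3.67 to 4.97 in affected birds. Its difference was 0.52 ± 0.33 in the brighter row and -0.03 ± 0.23 in the second. In the brighter row it ran from 0.37 to 0.80 with 1 bird left out, and was 0.20 without the 3 W-transcript arrays. It was 0.91 without normal bird 2 and affected bird 4. These were its highest normal and its lowest affected bird, so the difference had to grow without them. Over the 7 genes with a second row, both rows had the same sign in 5 and opposite signs in 2, KCNH7 and KCNMA1. KCNMA1, the pore of the large-conductance calcium-activated channel, differed by 0.08 ± 0.20 in the brighter row and by -0.07 ± 0.14 in the second. Its brighter row differed by -0.14 without the 3 W-transcript arrays. KCNT1, a sodium-activated channel, differed by -0.21 ± 0.13 (adjusted p = 0.341).

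Auxiliary subunits and regulators of potassium channels numbered 12, with 6 higher, 6 lower and none past the test. KCNE3, a small membrane subunit that in mammals pairs with channels of the fibre, ranged from 2.97 to 3.81 in normal and from 2.83 to 3.40 in affected birds. The difference was -0.40 ± 0.13 (adjusted p = 0.112), and the groups overlapped. KCNE2, of the same subunit family, had 5 affected birds below all normal birds and a difference of -0.22 ± 0.08 (adjusted p = 0.126). Its means were 3.18 in normal and 2.96 in affected birds, the latter under the 2.99 of HINTW. KCNAB2, a cytoplasmic beta subunit, differed by 0.19 ± 0.11, and KCNE4, named after its values were seen, by 0.30 ± 0.13 (adjusted p = 0.209).

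Leaving out the 3 arrays with W transcripts lowered the number of channel genes at an unadjusted p under 0.05. The median of the 119 genes was -0.06 both with and without them, and 78 and 82 genes were lower. That number was 18 with them and 13 without them, or 10.9%, beside 17.7% of all rows. Of the 2 channel genes on the Z chromosome, KCNV2 differed by -0.16 with all arrays and by -0.09 without the 3, and TRPM3 differed by -0.08 with all arrays.

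**Figure D5:**
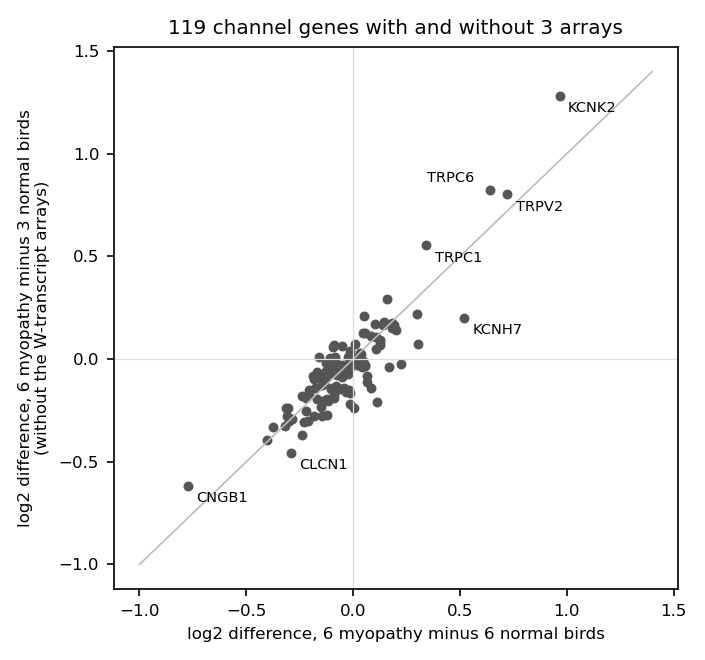
Log2 difference (affected, labelled myopathy, minus normal) of each of 119 channel genes with all 6 normal birds (x axis) and with the 3 normal birds without W transcripts (y axis); the diagonal line marks equal values. KCNK2, TRPC6 and TRPC1 lie above the line and CLCN1 below it, while CNGB1 is lower in affected muscle in both.

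On the reference assembly 14 pairs of channel genes had no other protein-coding gene between them, and their differences had the same sign in 9 pairs and opposite signs in 5. In KCNJ16 and KCNJ2, for example, the differences were -0.12 and 0.23, and in KCNK17 and KCNK5 they were -0.13 and 0.15. Pairs on the same side included SCN9A and SCN1A, at -0.09 and -0.14, and TRPV1 and TRPV3, at -0.05 and -0.10.

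Proteins that work with these channels in excitation and contraction were listed separately. Of 34 listed genes 21 were measured, 10 higher and 11 lower in affected muscle, with a median of -0.01 and 0 past limma's test, while 6 had an unadjusted p under 0.05, 28.6% beside 22.1% of all rows. FKBP1A, which binds and stabilises the calcium release channel, ranged from 8.20 to 8.62 in normal and from 7.82 to 8.23 in affected birds. In 5 affected birds it lay below all normal birds, with a difference of -0.39 ± 0.10 (adjusted p = 0.0613). It passed when affected bird 1 was left out (-0.42, adjusted p = 0.0443), and the difference was -0.33 without the 3 W-transcript arrays (adjusted p = 0.197). STIM1, the calcium sensor of store-operated entry, differed by -0.32 ± 0.13 (adjusted p = 0.178), and its channel ORAI1 by -0.41 ± 0.11. STK39, a kinase regulating ion transport, differed by 0.60 ± 0.26 (adjusted p = 0.196), and NEDD4L, a ubiquitin ligase of sodium channels, by 0.44 ± 0.14 (adjusted p = 0.0989). Leaving out the 3 W-transcript arrays gave 0.93 for STK39 and 0.22 for NEDD4L. The release channel RYR3 differed by -0.22 ± 0.13, and ABCC8 and ABCC9, the regulatory subunits of ATP-sensitive potassium channels, by 0.38 ± 0.17 and -0.02 ± 0.14. The stretch-activated channels PIEZO1 and PIEZO2 differed by 0.12 ± 0.11 and 0.08 ± 0.23.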

How the data were processed

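Total RNA (150 ng per bird) from 12 breast muscles was amplified and labelled as whole-transcript cDNA and measured on Affymetrix arrays, 1 for each bird, per the labels' protocols. The authors deposited log2 expression values per transcript cluster; the log base is inferred from the range of 1.04 to 12.9. The submitters' processing notes name Partek; for background correction, summarization, scaling and genome build, nothing is stated in the labels read here. The number of arrays limits the precision.

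Rows were named from the platform annotation (12300 of 20804 had 1 symbol, 256 several, 8248 none listed); 11727 matched, through Entrez IDs, a gene table of assembly GRCg7b, used only for chromosomes and neighbours. Groups follow the phenotype label, and bird numbers follow deposition order and pair no birds. Affected minus normal was fitted with limma 3.58.1 in R 4.3.3 (lmFit, eBayes), with Benjamini-Hochberg adjustment over all rows and a threshold of 0.05; intervals are 95%. Named were genes past the test, the 2 smallest p and the brightest row of each family, and 23 listed fibre channels, of which 13 were measured. Other channel and partner genes given with values were chosen after their values were seen. Members and lists were chosen with earlier results of these data known. Alternatives were other normalizations, row filters, variance models, array weights, HINTW as a covariate and birds left out. The fit was tested on simulated data. Sequences were not used here. Figures were drawn with matplotlib 3.10.9.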

Additional observations from a re-analysis of the deposited data

Results flagged for a closer look

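The check covered the 35 genes named by the fixed rule, with their second rows. Each group of 6 birds was checked for a bird whose gap to its nearest neighbour exceeded Dixon's 95% critical share of the group's range. Of 78 such groups 5 held one. Genes given outside that rule, such as KCNH7 and CNGA3, were not part of the check. Chance flags about 1 in 20 groups. CACNA2D1 stood at 8.27 in affected bird 1, with the next bird at 8.50. KCNE3 stood at 3.40 in affected bird 1, with the next at 3.04. KCNC4 stood at 4.43 in normal bird 1, with the next at 4.12. SCN3B stood at 3.54 in normal bird 1, with the next at 3.15. TRPM7 stood at 5.23 in affected bird 4, with the next at 4.83.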

How the results depend on the processing

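No paired analysis was possible because the labels give the birds of the groups no shared replicate numbers. The count of channel genes past the test by their brighter rows was 1 with all arrays. It was 2 with rows above the median level only, where KCNK2 joined CNGB1 (adjusted p = 0.0455). It was 0 with the 3 W-transcript arrays left out and with HINTW as a covariate. With normal bird 2 and affected bird 4 left out together it was also 0. With single birds left out it lay between 0 and 2. CNGB1 had a negative difference in all 24 refits, from -0.85 to -0.53. The count of all rows past the test, 238, was 384 and 455 with rows above the lower quartile and above the median level, 3 without the 3 arrays, 9 with HINTW as a covariate, 1 with normal bird 2 and affected bird 4 left out, and 1 to 588 with 1 bird left out. Of the partner genes 1 passed with rows above the median level, and 0 to 1 with a bird left out. The median of all channel genes was -0.0191 after quantile normalization and 0.0051 with rows above the median level. That filter keeps 31 of the 119 genes, few of them in some families. The medians were 0.42 for 2-pore potassium (2 genes kept), 0.23 for TRP (4) and 0.0589 for inward rectifier genes (4). In 3 families 1 gene was kept, so the value is that gene's own. These were CACNA1S for calcium alpha1 (0.0051), CNGB1 for cyclic nucleotide-gated (-0.77) and KCNAB2 for auxiliary potassium genes (0.19). With rows above the lower quartile the medians were 0.10 for TRP (9 genes kept), -0.54 for cyclic nucleotide-gated (2) and -0.0540 for voltage-gated potassium genes (17). The TRP median was 0.0226 after quantile normalization and ran from -0.0430 to 0.0032 with 1 bird left out, and the voltage-gated median from -0.0581 to -0.0063. Auxiliary potassium genes had a median of 0.0653 without the 3 arrays and 0.0734 with HINTW as a covariate, and sodium genes -0.19 with the covariate. Apart from the filters, which test fewer rows, the causes were not tested. Dim rows limit what can be read for 48 genes.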
